A study of Mus musculus with 6 samples.

Results

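The nuclear-encoded genes of oxidative phosphorylation were followed in RNA from primary mouse neurons in which the promoter of *Kcna1* had been targeted by CRISPR activation. They were taken by symbol. For complex I the symbol had to begin with Nduf, then a, b, c, s or v, then a digit. For complex II it had to be *Sdha*, *Sdhb*, *Sdhc* or *Sdhd*. For complexes III, IV and V it had to begin with Uqcr, with Cox4 to Cox8 or with Atp5, and *Usmg5* was added to complex V. Rows whose symbol carries a pseudogene ending were left out. Of 50508 rows, 91 matched, 6 of these were pseudogene rows, and 5 more were listed at 0 in every library (*Cox4i2*, *Cox7b2*, *Cox8b*, *Cox8c* and *Ndufa4l2*). This left 80 genes: 35 of complex I, 4 of complex II, 8 of complex III, 15 of complex IV, 16 of complex V, and 2 (*Atp5s* and *Atp5sl*) that carry an ATP synthase name but are not subunits of the enzyme. *Ndufa4*, named after complex I, was counted with complex IV, where its protein is found. In all, 19504 genes were above 0 in at least 1 library.

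The study asked whether raising *Kcna1* from its own promoter changes the rest of the transcriptome. Neurons from newborn C57Bl/6J mice were transduced with lentivirus carrying a nuclease-dead Cas9 fused to the activator VP160 under the Ef1alpha promoter, which is not restricted to neurons, and a guide RNA. The sgLacZ group (3 libraries) received a guide against the bacterial LacZ gene, and the sgKcna1 group (3 libraries) received a guide against the *Kcna1* promoter, so that both groups carry dCas9-VP160 and differ in the guide. The labels name hippocampus and the study's methods name cortex, the methods differ on the day of RNA extraction, and the methods speak of at least 3 independent repetitions in general but do not say that these replicates were separate cultures, so p-values measure only the spread between these samples.

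Oxidative phosphorylation is carried out in the inner mitochondrial membrane. Complexes I and II pass electrons from NADH and succinate to ubiquinone, complex III passes them to cytochrome c, complex IV reduces oxygen, and complex V uses the resulting proton gradient to make ATP. Most subunits are encoded in the nucleus, translated in the cytosol and imported, and they are joined in the membrane by the few subunits that the mitochondrial genome encodes. Neurons meet most of their demand for ATP in this way, and the genes are often described as sharing promoter sites for the factors NRF1 and GABP (an ETS factor) and for YY1.

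A promoter window from 250 bases before to 50 bases after a transcription start was at hand for 68 of the 80 genes (RefSeq, GRCm38.p6). The letters CCGGAAG (an ETS site), GCGCATG (the NRF1 core) or AAGATGGC (YY1) were present on either strand in 33 of the 68 (48.5%), against 15.9% of all 27025 genes with a window. The ETS letters were found in 25% of the 68 genes and 9.93% of all genes, the NRF1 letters in 19.1% and 4.41%, and the YY1 letters in 16.2% and 3.19%. The following 30-base stretches come from members that passed the threshold of the second fit below, and are shown because the NRF1 letters stand before genes that were lower and genes that were higher in sgKcna1. The ETS stretches shown are both before lower genes. Shares were counted over the whole window, which also holds the 50 bases after the start. By the grouping given after the sequences, the ETS letters were present in the windows of 7 of 25 lower genes (28%). They were present in 3 of 11 higher genes (27.3%) and in 4 of 24 overlapping ones (16.7%). Each stretch is written 5′ to 3′ on the strand of the gene, with the matching letters (or their reverse complement) in capitals.
Ndufa6 (lower in sgKcna1, NRF1 letters, chr15:82354355-82354384, minus strand): ccgcggtagagCATGCGCattgcagagccc
Ndufb6 (lower, NRF1 letters, chr4:40279480-40279509, minus strand): gagagggctttGCGCATGagcagagcctgc
Cox5b (lower, NRF1 letters, chr1:36691425-36691454, plus strand): gaggcagaactGCGCATGtgcggcgtctac
Sdhb (higher, NRF1 letters, chr4:140961207-140961236, plus strand): agcccagtgggCATGCGCcctacgggccgc
Atp5k (higher, NRF1 letters, chr5:108434431-108434460, minus strand): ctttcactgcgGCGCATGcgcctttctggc
Atp5h (lower, ETS letters, chr11:115419939-115419968, minus strand): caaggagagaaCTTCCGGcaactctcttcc
Atp5j (lower, ETS letters, the second of 2 listed starts, chr16:84835019-84835048, minus strand): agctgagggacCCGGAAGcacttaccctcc

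In *Atp5k* the letters on the minus strand overlap a second match on the other strand, since the motif and its reverse complement share letters. Among members with a mean value of at least 10, any of the 3 motifs was present in 48% of 25 genes whose sgKcna1 libraries all lay below the sgLacZ libraries, in 45.5% of 11 genes whose sgKcna1 libraries all lay above, and in 50% of 24 genes whose groups overlapped. The NRF1 letters were present in 16% of these lower, 27.3% of the higher and 16.7% of the overlapping genes, and the YY1 letters in 12%, 18.2% and 25%. A match is a description of letters and not of a bound site.

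The deposited values are whole numbers that sum to between 999047 and 999717 in a library and were treated as per-million values that the authors rounded, so the number of reads behind a value is unknown. The libraries were made from the 3′ end of polyadenylated RNA, so values are not divided by gene length. *Kcna1*, the targeted gene, had the value 16 in every sgLacZ library and 68, 47 and 65 in sgKcna1, a log2 fold change of 1.83 ± 0.16 (SE) with an adjusted p of 0.0345. The library sgLacZ 3 stood between the groups. Over genes averaging at least 10 its correlation was 0.954 and 0.960 with sgLacZ 1 and 2 and from 0.958 to 0.974 with the sgKcna1 libraries, whereas sgLacZ 1 and 2 correlated with each other at 0.980. Counts of members and sums over complexes are therefore given with and without it, and list counts mainly in the restricted fit described below. Single genes are given without it in part only, and its absence also moved calls of genes for which this is not printed. Fold changes below are differences in the mean of log2(value + 1), sgKcna1 minus sgLacZ, with the standard error of the fit, and are smaller than the true change for low values.

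All 80 genes together summed to between 10635 and 11191 in sgLacZ and between 10334 and 10721 in sgKcna1, a mean 4.42% lower with overlapping groups, and 1.67% or 3.84% higher when libraries were rescaled by median-of-ratios or upper-quartile factors. Without sgLacZ 3 it was 5.84% lower. Single genes differed by far more than this total. In the fit of all 19504 genes (limma, Benjamini-Hochberg adjusted p under 0.05), 8 of the 80 genes were lower in sgKcna1 and 0 were higher, where 0.81% and 0.349% of all genes were. The 8 genes were *Cox7c*, *Atp5j*, *Ndufa1*, *Usmg5*, *Uqcrfs1*, *Sdhc*, *Ndufb3* and *Ndufa12*, and all had a mean of at least 10, a class in which the same fit called 1.7% of genes lower. At an unadjusted p under 0.05, 31 of the 80 genes (38.8%) were lower and 10 (12.5%) were higher, against 13.6% and 9.59% of all genes. The adjusted p of the 8 genes lay between 0.0345 and 0.0496, and 8 further genes (*Ndufa2*, *Sdhb*, *Cox5a*, *Cox7b*, *Ndufb6*, *Uqcrb*, *Atp5c1* and *Atp5h*) lay between 0.0527 and 0.0556.

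Restricting the fit to the 8050 genes with a mean of at least 10, which 71 of the 80 genes reached, gave 24 lower and 7 higher members. The background of that fit was 17% of genes lower and 11.4% higher, so 33.8% of members against 17% were lower and 9.86% against 11.4% were higher. Leaving out sgLacZ 3 from the fit of all genes gave 22 lower and 6 higher members, against a background of 6.87% and 5.08%. Leaving out any of the other 5 libraries left between 1 and 3 members past the threshold, all lower, with *Usmg5* among them in 5 of 5 and *Cox7c* in 2 of 5. *Sdhc*, *Uqcrfs1*, *Atp5j* and *Ndufa12* did not pass in any of these 5 fits. The share of all genes called lower was 0.615% and 0.656% without sgLacZ 1 and 2 and 0.528%, 0.323% and 0.369% without sgKcna1 1, 2 and 3. The libraries of the groups did not overlap in 28 lower and 13 higher members of the 71, where 23.9% and 15.9% of all genes at that level did not. The median log2 fold change of the 80 members was -0.19, against -0.02 over all genes tested, and the median size of the change among the 71 members was 0.34, against 0.31 over all genes with a mean of at least 10. The share of lower members lay above the background in the fit of all genes, in the restricted fit and without sgLacZ 3, although without another library it rested on 1 to 3 genes, while the share of higher members changed sides. It was below the background in the fit of all genes (0 members) and in the restricted fit, and above it without sgLacZ 3 (7.5% against 5.08%), at an unadjusted p under 0.05 (12.5% against 9.59%) and among genes whose groups did not overlap (18.3% against 15.9%).

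**Figure D1:**
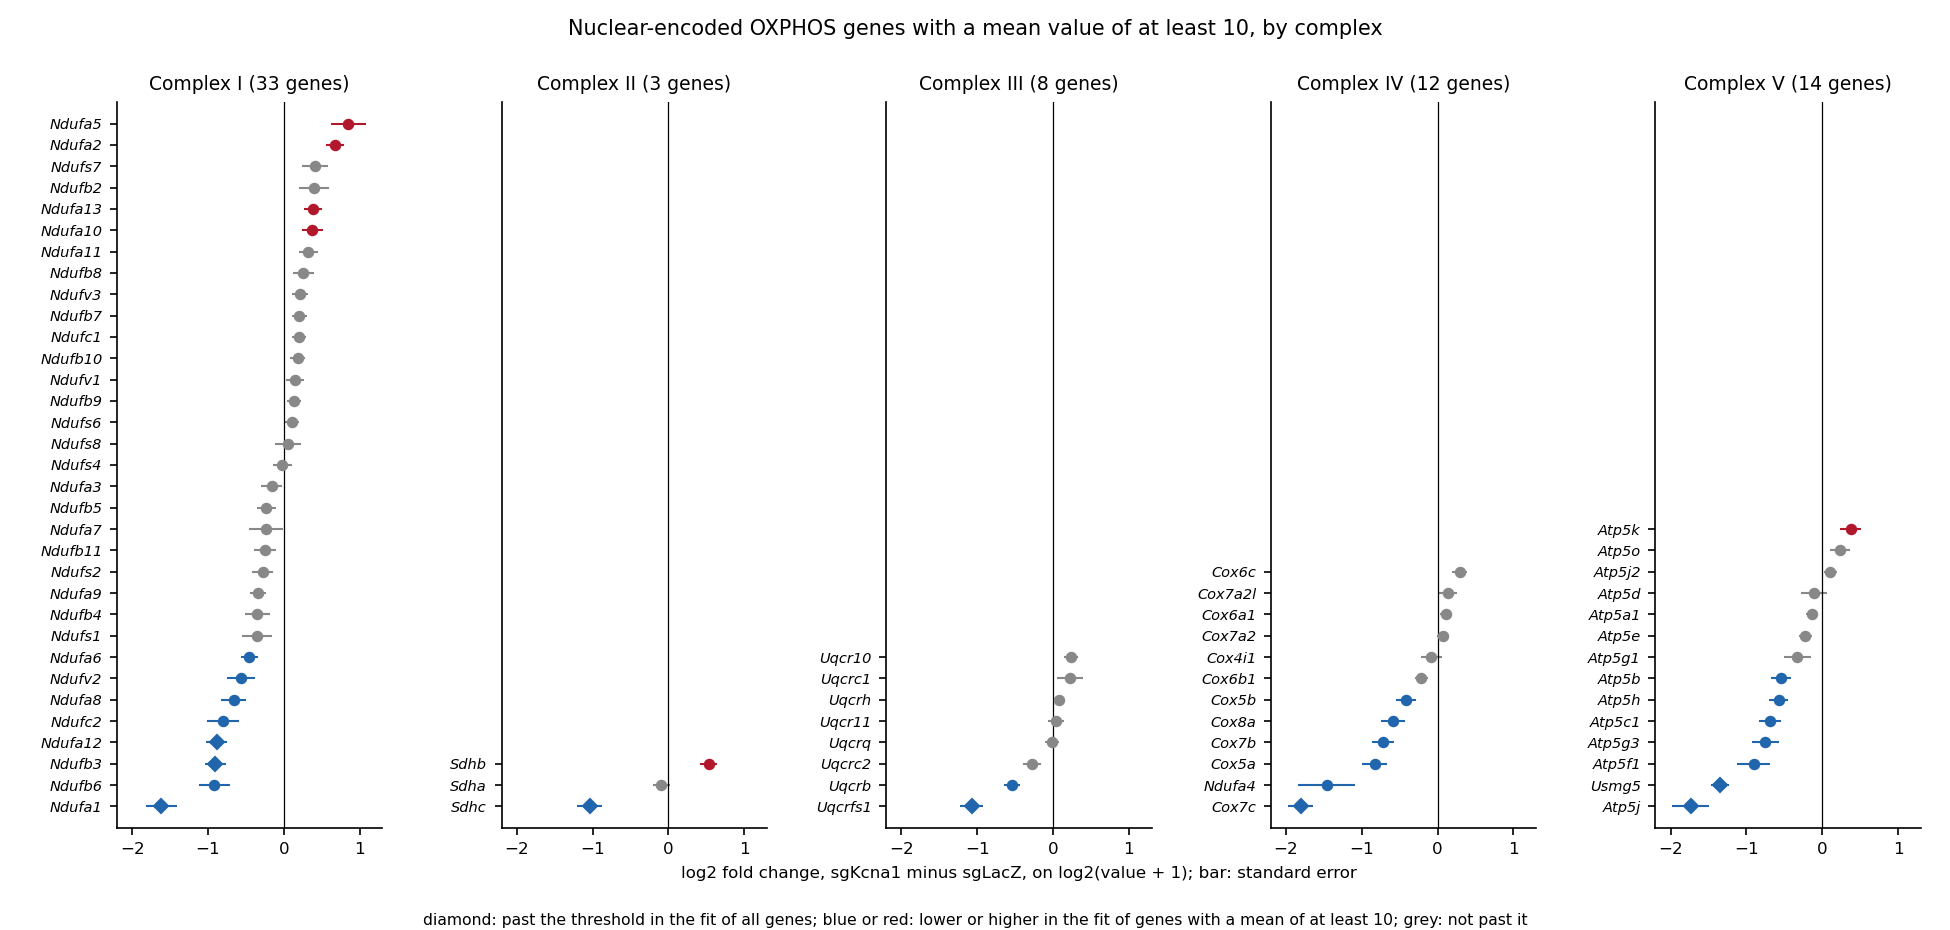
Log2 fold change (horizontal axis, sgKcna1 minus sgLacZ, on log2(value + 1)) of the complex I to V genes with a mean of at least 10, 1 panel a complex, with bars for the standard error (3 libraries a group). Diamonds mark the 8 genes past the threshold in the fit of all genes, and blue and red mark genes lower or higher in the fit of genes with a mean of at least 10. Each complex holds genes on both sides of 0, from *Cox7c* at -1.81 to *Ndufa5* at 0.85.

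Complex I held genes well below and well above 0. *Ndufa1*, a small accessory subunit of the membrane arm encoded on the X chromosome, was listed at 78, 51 and 49 in sgLacZ and at 21, 17 and 17 in sgKcna1. Every sgKcna1 library lay well below every sgLacZ library, with a log2 fold change of -1.62 ± 0.20 and an adjusted p of 0.0486 (0.0261 without sgLacZ 3). *Ndufb3*, another membrane arm subunit, was at 151, 141 and 154 against 94, 79 and 66, with a log2 fold change of -0.91 ± 0.14 and an adjusted p of 0.0496. This was the single gene of the 8 whose call was lost without sgLacZ 3 (adjusted p 0.0518), although sgLacZ 3 had its highest value. *Ndufa12*, an accessory subunit close to the catalytic arm, was at 190, 200 and 155 against 112, 86 and 96, with a log2 fold change of -0.88 ± 0.14 and an adjusted p of 0.0496 (0.0257 without sgLacZ 3).

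Other accessory subunits of complex I were higher in sgKcna1. *Ndufa2* was listed at 190, 195 and 237 in sgLacZ and at 297, 338 and 361 in sgKcna1, a log2 fold change of 0.68 ± 0.12. Its adjusted p was 0.0527 in the fit of all genes, 0.00244 in the fit of genes with a mean of at least 10 and 0.0247 without sgLacZ 3. *Ndufa5* was at 217, 206 and 390 against 460, 500 and 450, so that sgLacZ 3 lay much nearer to sgKcna1 than to its own group. Its log2 fold change was 0.85 ± 0.24 (adjusted p 0.0856, and 0.00479 in the restricted fit) and 1.15 without sgLacZ 3 (adjusted p 0.0135). *Ndufa10*, at 162, 186 and 233 against 250, 251 and 247, and *Ndufa13*, at 124, 148 and 168 against 187, 190 and 195, also passed in the restricted fit (adjusted p 0.048 and 0.0394), and in both the highest sgLacZ library was sgLacZ 3. *Ndufb8*, listed at 281, 352 and 394 against 377, 420 and 422, had overlapping groups and an adjusted p of 0.283.

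The 7 core subunits of complex I, which make up the arm that takes electrons from NADH and carries them to ubiquinone, had log2 fold changes from -0.56 to 0.41, and none passed in the fit of all genes. Of these, *Ndufv2* passed in the restricted fit, at 114, 109 and 70 against 65, 64 and 64 (log2 fold change -0.56 ± 0.19, adjusted p 0.0243). Here too sgLacZ 3 lay next to the sgKcna1 libraries. In that fit the other lower complex I genes were *Ndufa6*, *Ndufa8*, *Ndufb6* and *Ndufc2*, with log2 fold changes of -0.46, -0.66, -0.92 and -0.80. Over the 35 genes of complex I, 17 of the 33 with a mean of at least 10 (51.5%) had overlapping groups, where 60.2% of all genes at that level did. The sum over the complex was 3705, 3864 and 3828 in sgLacZ and 3889, 4045 and 4008 in sgKcna1, 4.78% higher (5.18% without sgLacZ 3), and 11.4% or 13.7% higher under median-of-ratios or upper-quartile factors. Without *Ndufa5* it was 0.491% lower with overlapping groups.

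Complex II has 4 subunits, all encoded in the nucleus and its single genes had fold changes of both signs. *Sdha* and *Sdhb* form the catalytic head that oxidises succinate, and *Sdhc* and *Sdhd* anchor it in the membrane. *Sdhb* was listed at 191, 199 and 242 in sgLacZ and at 290, 314 and 308 in sgKcna1, every sgKcna1 library above every sgLacZ library, with a log2 fold change of 0.53 ± 0.11 (adjusted p 0.0556, 0.00658 in the restricted fit and 0.0135 without sgLacZ 3). *Sdhc* was at 97, 82 and 66 against 44, 38 and 35, with a log2 fold change of -1.04 ± 0.17 and an adjusted p of 0.0496 (0.0211 without sgLacZ 3). The flavin-binding subunit *Sdha* was at 114, 94 and 92 against 92, 97 and 91, a log2 fold change of -0.09 ± 0.11 with overlapping groups. *Sdhd* was listed at 10, 5 and 3 against 2, 3 and 1, too low for the restricted fit and with overlapping groups (log2 fold change -1.15 ± 0.44, adjusted p 0.172). The difference between *Sdhb* and *Sdhc* was not itself tested. Together the anchor subunits summed to 107, 87 and 69 in sgLacZ and 46, 41 and 36 in sgKcna1, and the catalytic subunits, where *Sdhb* alone was higher, to 305, 293 and 334 against 382, 411 and 399. The sum over the complex was 412, 380 and 403 against 428, 452 and 435, 10% higher (10.7% without sgLacZ 3), and without *Sdhb* it was 28.4% lower with groups apart, so that its direction rests on 1 gene. Median-of-ratios or upper-quartile factors put it 17.1% or 19.6% higher.

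In complex III 2 of the 8 genes were lower and 0 higher in the restricted fit, where 17% of all genes were lower and 11.4% higher. The other 6 did not pass in either fit. *Uqcrfs1*, the Rieske iron-sulfur protein that hands electrons on within the complex, passed in both, at 92, 78 and 63 in sgLacZ against 36, 38 and 34 in sgKcna1. The log2 fold change, -1.07 ± 0.15, had an adjusted p of 0.0486 (0.0135 without sgLacZ 3). *Uqcrb*, an accessory subunit near the quinone site, was at 142, 146 and 119 against 97, 92 and 89, with a log2 fold change of -0.54 ± 0.11 and an adjusted p of 0.0556 (0.00819 in the restricted fit). By contrast, *Uqcrh* was at 495, 485 and 462 against 500, 523 and 495 (log2 fold change 0.07 ± 0.08) and *Uqcrq* at 162, 164 and 144 against 154, 151 and 159 (-0.02 ± 0.09), neither past the threshold in these fits or without sgLacZ 3. *Uqcr10* was at 137, 138 and 128 against 146, 161 and 170, with groups that did not overlap but an adjusted p of 0.185 (0.24 ± 0.09). The sum over the 8 genes was 1298, 1303 and 1152 in sgLacZ and 1197, 1208 and 1204 in sgKcna1, with sgLacZ 3 the lowest of all. It was 3.84% lower, 7.5% lower without sgLacZ 3, and 2.29% or 4.56% higher under median-of-ratios or upper-quartile factors.

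**Figure D2:**
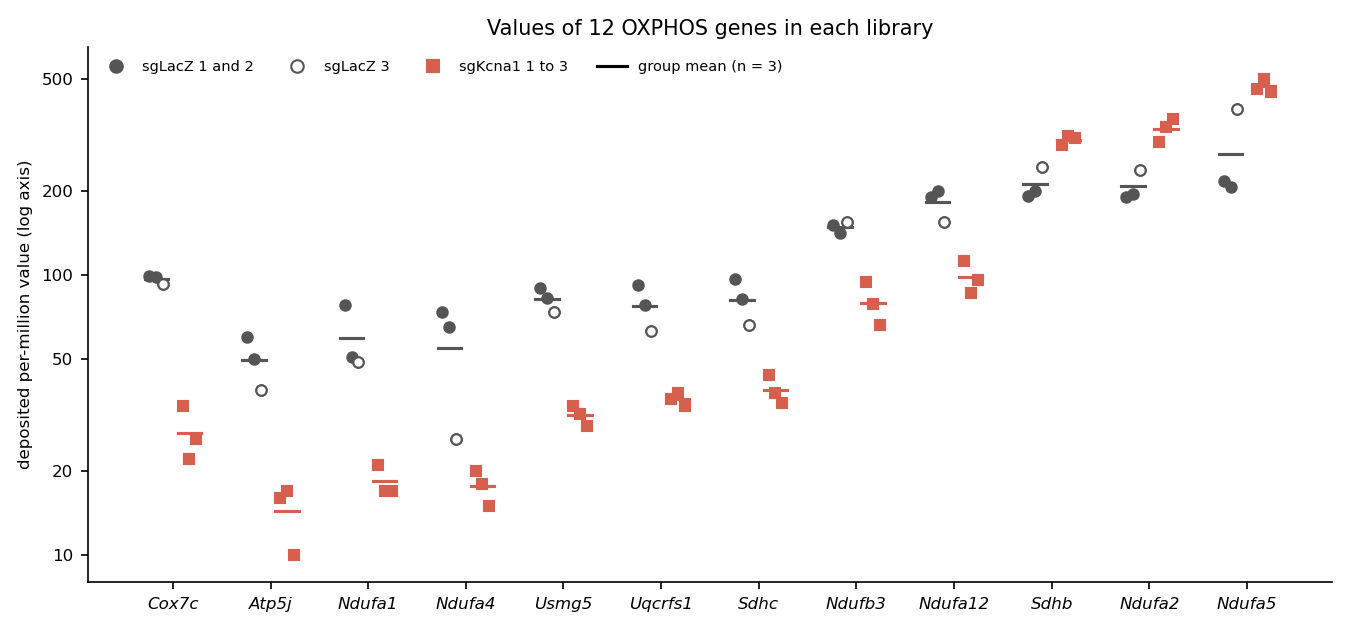
Deposited per-million values (log axis) of 12 genes in each library, with sgLacZ in grey circles (sgLacZ 3 open), sgKcna1 in red squares and a line at the mean of each group (n = 3). In the 9 genes on the left all sgKcna1 libraries lie below all sgLacZ libraries, and in *Sdhb*, *Ndufa2* and *Ndufa5* they lie above. The open circle of *Ndufa4*, at 26, and that of *Ndufa5*, at 390, lie close to the sgKcna1 libraries.

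Complex IV held the gene with the lowest fold change of the 80. *Cox7c*, a small membrane subunit of the oxidase, was listed at 99, 98 and 93 in sgLacZ and at 34, 22 and 26 in sgKcna1. The log2 fold change, -1.81 ± 0.16, had an adjusted p of 0.0345 (0.0196 without sgLacZ 3), and sgLacZ 3 lay with the other sgLacZ libraries. *Ndufa4* was at 74, 65 and 26 against 20, 18 and 15, so that its groups did not overlap but sgLacZ 3 was near the sgKcna1 libraries. The difference was -1.46 ± 0.38 on the log2 scale (adjusted p 0.0734), and -1.92 (adjusted p 0.0135) without sgLacZ 3. *Cox5a*, at 207, 202 and 155 against 102, 125 and 89 (-0.83 ± 0.16), and *Cox7b*, at 172, 127 and 127 against 88, 89 and 78 (-0.72 ± 0.14), had an adjusted p of 0.0553 each and passed in the restricted fit, as did *Cox5b* and *Cox8a*. *Cox6c* went the other way, at 513, 473 and 546 against 583, 609 and 687, and did not pass in either fit (log2 fold change 0.29 ± 0.10, adjusted p 0.135 and 0.0713).

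Several complex IV subunits have isoforms that replace each other between tissues. For the isoforms usual in most tissues, *Cox4i1* was at 151, 173 and 122 against 143, 134 and 140, *Cox6a1* at 248, 252 and 232 against 256, 263 and 273, and *Cox6b1* at 280, 283 and 272 against 249, 250 and 222. None of these 3 passed in either fit, and their log2 fold changes were -0.08, 0.11 and -0.21. The muscle and heart forms *Cox6a2* and *Cox7a1* and the testis form *Cox6b2* were between 0 and 3 in every library, and *Cox4i2*, *Cox7b2*, *Cox8b*, *Cox8c* and *Ndufa4l2* were listed at 0. A listed 0 may not mean that a gene is silent, since 6 of 13 mitochondrially encoded subunits and 6 of 76 cytosolic ribosomal protein genes were also listed at 0 in every library. *Cox7a2* was at 291, 279 and 302 against 289, 309 and 319, and *Cox7a2l*, which takes part in joining complexes III and IV, was at 66, 82 and 71 against 89, 75 and 77. The sum over complex IV was 2305, 2212 and 2104 in sgLacZ and 1986, 2027 and 2042 in sgKcna1, 8.55% lower (10.6% without sgLacZ 3), a gap that narrowed to 2.72% or 0.571% with overlapping groups under median-of-ratios or upper-quartile factors. Without *Cox6c* it was 17.9% lower.

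In complex V, 7 of the 14 genes with a mean of at least 10 were lower in the restricted fit and *Atp5k* was higher, in a fit that called 17% of all genes lower and 11.4% higher. *Atp5j*, a subunit of the peripheral stalk that holds the catalytic head still, was listed at 60, 50 and 39 in sgLacZ and at 16, 17 and 10 in sgKcna1 (log2 fold change -1.74 ± 0.24, adjusted p 0.0486, and 0.0308 without sgLacZ 3). Its gene overlaps *Gabpa* in RefSeq, whose own values were low and overlapping (13, 5 and 10 against 9, 8 and 11). Among the genes called in the fit of all genes, *Cox7c*, *Ndufa1*, *Sdhc* and *Usmg5* also overlap a RefSeq gene (*Gm22574*, *Rnf113a1*, *Gm46172* and *Taf5*). The study's methods name stranded reads, but how reads were assigned by strand is not given in the sources used here. *Usmg5*, a small membrane protein of the complex also called DAPIT, was at 90, 83 and 74 against 34, 32 and 29, with little spread in either group. Its log2 fold change was -1.35 ± 0.12 and its adjusted p 0.0345 (0.0135 without sgLacZ 3).

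The rest of the peripheral stalk was not uniform. *Atp5f1* was at 181, 165 and 100 against 76, 82 and 72 (-0.90 ± 0.22) and *Atp5h* at 93, 83 and 94 against 64, 66 and 51 (-0.58 ± 0.13), both lower in the restricted fit, whereas *Atp5o*, at 338, 354 and 442 against 418, 499 and 413, had overlapping groups (0.23 ± 0.13). In the rotating ring of c subunits, through which protons pass, *Atp5g3* was at 752, 726 and 516 against 411, 439 and 326. This was a log2 fold change of -0.75 ± 0.18, with an adjusted p of 0.0618, of 0.00343 in the restricted fit and of 0.0378 without sgLacZ 3. Of the other c-subunit genes, which encode the same mature protein, *Atp5g1* was at 29, 35 and 23 against 23, 25 and 20 and did not pass (-0.33 ± 0.18), and *Atp5g2* was listed above 0 in 1 library only.

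Both subunits of the catalytic head had all sgKcna1 libraries below all sgLacZ libraries. *Atp5b*, the catalytic beta subunit, was at 315, 331 and 250 against 220, 187 and 202 (log2 fold change -0.55 ± 0.13, adjusted p 0.0617 and 0.00803 in the restricted fit). Its partner *Atp5a1* was at 460, 480 and 481 against 420, 453 and 425, a difference of -0.13 ± 0.08 that did not pass in either fit. The difference between *Atp5b* and *Atp5a1* was not tested. *Atp5c1*, the shaft that turns within the head, was at 117, 152 and 105 against 80, 74 and 75 (-0.68 ± 0.15, adjusted p 0.0556), while *Atp5d* of the same stalk overlapped between groups. *Atp5k*, an accessory subunit where dimers of the enzyme form, was higher at 574, 636 and 559 against 401, 425 and 550 (0.37 ± 0.13, adjusted p 0.15 and 0.0454 in the restricted fit), with sgLacZ 3 again next to sgKcna1. The complex V sum was 3329, 3418 and 3130 in sgLacZ and 2809, 2957 and 2667 in sgKcna1, 14.6% lower (16.7% without sgLacZ 3). It stayed lower by 7.94% without *Atp5g3* and, with overlapping groups, by 9.15% and 7.2% under median-of-ratios and upper-quartile factors. *Atp5sl*, no subunit despite its name, was at 21, 11 and 17 against 23, 29 and 32 (0.77 ± 0.25, adjusted p 0.0229 in the restricted fit).

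**Figure D3:**
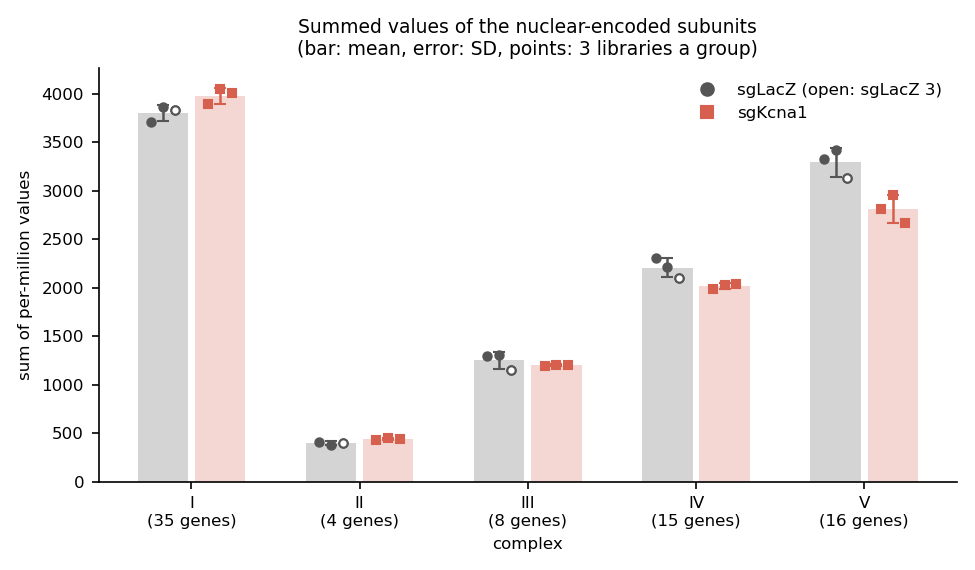
Sum of the per-million values over the genes of each complex, with a bar at the group mean, an error bar of 1 SD and a point for each of the 3 libraries a group (sgLacZ in grey with sgLacZ 3 open, sgKcna1 in red). The sgKcna1 libraries sum to more in complexes I and II, to less in IV and V, and overlap with sgLacZ in complex III. The direction in complex I turns without *Ndufa5* and that in complex II without *Sdhb*. Under median-of-ratios or upper-quartile factors (not drawn) the groups overlap in complexes IV and V and stay apart in I and II.

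The library sgLacZ 3 was nearer to the sgKcna1 mean than to the mean of sgLacZ 1 and 2 in 34 of the 71 members, where 56% of all genes at that level were. Members differed in this. *Ndufa4*, *Ndufa5*, *Ndufc2* (157, 150 and 92 against 67, 80 and 75) and *Ndufv2* had sgLacZ 3 beside sgKcna1, and *Cox7c*, *Ndufb3*, *Atp5h* and *Usmg5* had it beside the other sgLacZ libraries. In the fit of genes with a mean of at least 10, leaving out sgLacZ 3 raised the members past the threshold to 31 lower and 11 higher of 71, where 26.5% of all genes were lower and 20.1% higher, so that the higher members lay below the background. All 31 members called in the restricted fit were also called there, in the same direction. In the fit of all genes without sgLacZ 3 26 of the 31 were called, and the others were *Ndufb3*, *Cox7b* (adjusted p 0.0546), *Cox8a* (0.108), *Atp5h* (0.0951) and *Atp5sl* (0.204). *Ndufa7* (adjusted p 0.0369) and *Ndufb5* (0.0441), both lower, were called there but not in the fits with sgLacZ 3.

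**Figure D4:**
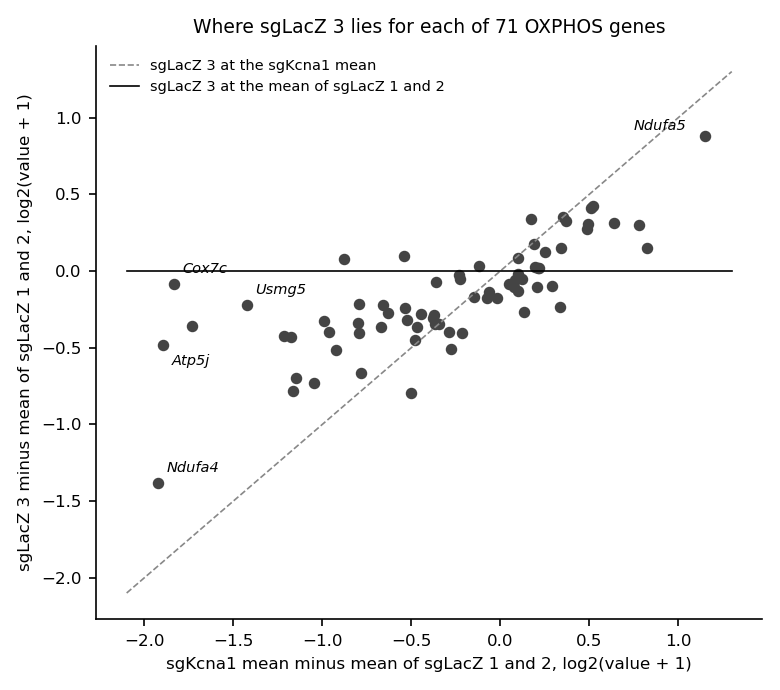
For each of the 71 genes, the difference of sgLacZ 3 from the mean of sgLacZ 1 and 2 (vertical axis) against the difference of the sgKcna1 mean from the same mean (horizontal axis), both in log2(value + 1). Genes on the solid line have sgLacZ 3 at the level of the other sgLacZ libraries, as *Cox7c* nearly does, and genes on the dashed line have it at the sgKcna1 mean. Because both axes subtract the same mean, a common slope is no result.

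The base composition of the 3′ end, from which these libraries were made, moved with the fold change. Over the 71 members the Spearman correlation between the GC content of the last 300 bases of the longest coding transcript (GENCODE vM1) and the log2 fold change was 0.54 across genes, which share their libraries and are no independent replicates. Over the 7196 of 8050 genes with a value it was 0.32. The median GC content was 40.7% in the 28 members whose sgKcna1 libraries all lay below sgLacZ, 51% in the 13 that lay above and 49.7% in the 30 that overlapped, against 42.3% over all genes at that level. *Uqcrc2*, with 28% the lowest of the 71, had overlapping groups (134, 125 and 106 against 106, 100 and 93). Transcript length was less related to the fold change (0.16 over members and 5.85e-05 over the 7196 genes). The mean value was related to it at 0.42 over members and at 0.168 over the 8050 genes. A correction of each library for this GC content, added after seeing the data, left 23 members lower and 6 higher of 71, against 24 and 7 in the same genes without it. The share of all genes was 11.7% lower and 13% higher with the correction and 17.8% and 11.1% without it. The members called were not the same: 25 were called in both, and *Atp5k*, *Atp5sl*, *Ndufa13*, *Uqcrb*, *Ndufa6* and *Ndufv2* lost their call. The log2 fold change of *Ndufa13* went from 0.39 to 0.16 (adjusted p 0.364), that of *Ndufv2* from -0.56 to -0.34 (0.122) and that of *Atp5k* from 0.37 to 0.24 (0.186). The others stayed close to the threshold. *Uqcrb* went from -0.54 to -0.35 (adjusted p 0.0512), *Atp5sl* from 0.77 to 0.62 (0.0578) and *Ndufa6* from -0.46 to -0.35 (0.0587). *Ndufb2*, *Cox6b1*, *Cox6c* and *Ndufb4* gained a call.

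**Figure D5:**
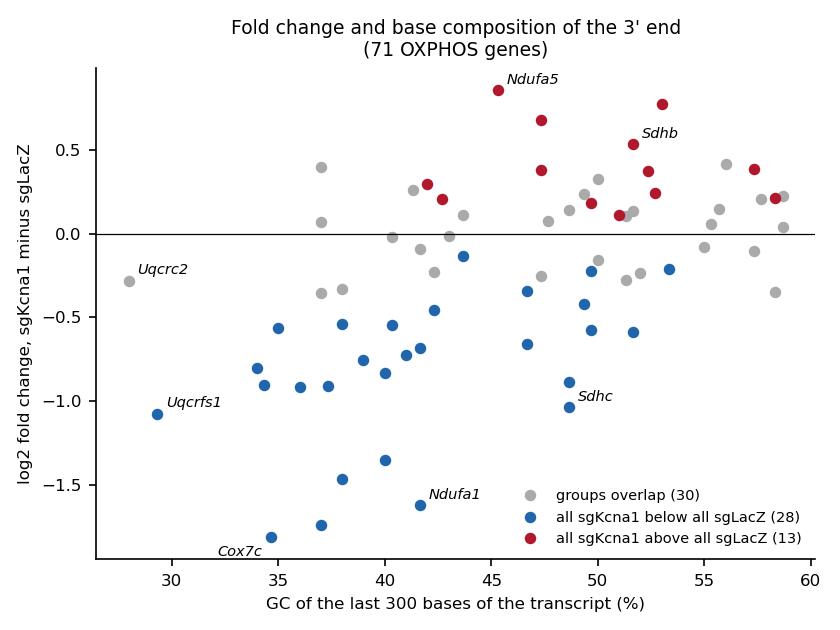
GC content of the last 300 transcript bases (horizontal axis, percent) and log2 fold change (vertical axis, sgKcna1 minus sgLacZ) of the 71 members with a mean of at least 10, coloured by whether all 3 sgKcna1 libraries lie below (28, blue) or above (13, red) all 3 sgLacZ libraries or overlap with them (30, grey). Genes that were lower in sgKcna1 have a median of 40.7% and genes that were higher one of 51%, with *Sdhc*, at 48.7%, among the exceptions.

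Genes around the complexes were read from lists of the same pathway. In this and the next 2 paragraphs their counts stand against the shares of all genes given above. These were 0.81% lower and 0.349% higher in the fit of all genes, so that 0 called genes in a list says little. They were 17% lower and 11.4% higher in the restricted fit, and 13.6% lower and 9.59% higher at an unadjusted p under 0.05. Of 47 assembly factors tested, which build the complexes without staying in them, 0 passed in the limma fit of all genes (13 were lower and 6 higher at an unadjusted p under 0.05), and of the 28 in the restricted fit 3 were lower (10.7%) and 6 higher (21.4%). The 6 included 3 of complex III: *Bcs1l*, which inserts the Rieske protein, at 13, 10 and 16 against 24, 29 and 27 (adjusted p 0.00409 in that fit), *Ttc19* (0.52 ± 0.10) and *Uqcc3* (0.59 ± 0.18). For complex IV, *Coa3* was at 105, 114 and 141 against 176, 173 and 198 (0.61 ± 0.13), *Coa7* and *Cox10* were also higher, and *Coa5* was lower (-0.71 ± 0.16). *Tmem70*, an assembly factor of complex V, was at 28, 23 and 24 against 15, 14 and 14 (-0.76 ± 0.14), and *Ndufaf5* of complex I was lower (-0.63 ± 0.14). Of the 5 subunits or carriers whose symbols fall outside the rule (*Ndufab1*, *Cyc1*, *Cycs*, *Atpif1* and *2010107E04Rik*), 0 passed in either limma fit, and *Cycs* was lower at an unadjusted p under 0.05. Without sgLacZ 3 the restricted fit called 7 of 28 assembly factors lower and 9 higher and 2 of the 5 other genes lower. In that fit 26.5% of all genes were lower and 20.1% higher. The fit of all genes without sgLacZ 3 called 6 of 47 assembly factors lower and 5 higher, against 6.87% and 5.08% of all genes.

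In the citric acid cycle, which feeds the chain with NADH and succinate, 0 of 14 genes passed in the limma fit of all genes (8 were lower and 1 higher at an unadjusted p under 0.05) and 5 of 13 were lower in the restricted fit. Fumarase *Fh1*, which takes the product of complex II onward, was at 34, 28 and 19 against 9, 11 and 8 (-1.41 ± 0.24, adjusted p 0.0502 and 0.00144), and citrate synthase *Cs* at 58, 42 and 41 against 31, 31 and 30 (-0.58 ± 0.16). *Mdh2* was on the other side, at 679, 784 and 776 against 837, 892 and 965, and did not pass (adjusted p 0.159). Of 12 regulators of mitochondrial biogenesis 0 passed in the limma fit of all genes, and 2 were lower at an unadjusted p under 0.05. *Tfam*, which packages and transcribes mitochondrial DNA, was at 43, 33 and 32 against 25, 22 and 20 (-0.66 ± 0.16, adjusted p 0.0666 and 0.0161 in the restricted fit), whereas the coactivator *Ppargc1a* was at 37, 32 and 37 against 42, 33 and 31 (-0.01 ± 0.15). Without sgLacZ 3 the restricted fit called 8 of 13 genes of the citric acid cycle lower and 1 higher, and 1 regulator lower. In that fit 26.5% of all genes were lower and 20.1% higher. The fit of all genes without sgLacZ 3 called 3 of 14 cycle genes lower and 0 higher, and 0 of 12 regulators. There 6.87% and 5.08% of all genes were called.

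Of the 13 subunits encoded by the mitochondrial genome, 7 were listed above 0 and 0 passed in the limma fit of all genes (2 lower and 1 higher at an unadjusted p under 0.05). Their fold changes had both signs. The complex I subunit *mt-Nd4* was listed at 1248, 1023 and 2726 in sgLacZ and at 3280, 3095 and 3852 in sgKcna1 (1.16 ± 0.34, adjusted p 0.0993 and 0.00463 in the restricted fit), with sgLacZ 3 near the sgKcna1 libraries. The oxidase subunit *mt-Co1* was at 218, 176 and 162 against 122, 123 and 118 (-0.60 ± 0.12, adjusted p 0.0556 and 0.00534) and *mt-Cytb* at 1455, 1301 and 1234 against 1012, 961 and 1057 (-0.39 ± 0.09), both lower in the restricted fit. *mt-Nd1*, *mt-Nd2*, *mt-Nd5* and *mt-Nd6* did not pass in either fit. Without sgLacZ 3 the restricted fit again called 2 of the 7 lower and 1 higher, and so did the fit of all genes. Of all genes, 26.5% were lower and 20.1% higher in the first of these fits, and 6.87% and 5.08% in the other.

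Other large sets of housekeeping transcripts were read in the same way. Of 70 cytosolic ribosomal protein genes tested, 2 were lower (*Rpl35a* and *Rpl17*) and 0 higher in the fit of all genes. In that fit 0.81% of all genes were lower and 0.349% higher. In the restricted fit 19 of 64 were lower (29.7%, against 17% of all genes) and 7 higher (10.9%, against 11.4%). For 35 proteasome subunits the restricted fit gave 8 lower (22.9%) and 7 higher (20%), both above the share of all genes. For 45 mitochondrial ribosomal protein genes it gave 2 lower (4.44%) and 3 higher (6.67%), both below it. Without sgLacZ 3 the restricted fit gave 27 lower and 14 higher cytosolic ribosomal protein genes, 13 lower and 10 higher proteasome subunits and 4 lower and 4 higher mitochondrial ribosomal protein genes, where 26.5% of all genes were lower and 20.1% higher. The median size of the log2 fold change in these sets was 0.40, 0.44 and 0.20, against 0.34 for the 71 members. No difference between these sets and the members was tested.

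The summed markers of astrocytes, the oligodendrocyte lineage, dividing cells and microglia moved with the groups, and those of excitatory neurons, inhibitory neurons and vascular or meningeal cells overlapped between them. In bulk RNA, fewer cells of a type and less RNA per cell cannot be told apart. In this paragraph and the next, marker counts stand against shares of all genes. These were 0.81% lower and 0.349% higher in the limma fit of all genes, and 17% and 11.4% in the restricted fit. At an unadjusted p under 0.05 they were 13.6% and 9.59%. Of 10 astrocyte markers 3 were lower in the fit of all genes (*Aqp4*, *Aldoc* and *Sox9*) and 5 of 8 in the restricted fit (*Slc1a3* and *Gja1* too), 6 were lower and 0 higher at an unadjusted p under 0.05, and the list summed to between 961 and 1069 in sgLacZ and between 702 and 718 in sgKcna1. *Aqp4*, the water channel of astrocytes, was at 53, 54 and 39 against 18, 17 and 17 (-1.42 ± 0.16, adjusted p 0.0486), whereas the astrocyte markers *Gfap* (63, 45 and 57 against 46, 48 and 70), *Aldh1l1*, *S100b* and *Fgfr3* overlapped between the groups. The 8 markers of the oligodendrocyte lineage, of which *Olig2* was lower in both fits, *Olig1* in the restricted fit and *Mog* at 0, had 5 lower and 1 higher at an unadjusted p under 0.05, the higher one being *Mbp* (3, 3 and 2 against 7, 4 and 7). They summed to between 66 and 98 against 40 to 44. Of 8 dividing cell markers 0 passed in the fit of all genes (7 were lower at an unadjusted p under 0.05) and *Pcna* was lower in the restricted fit, and the sums were 121 to 126 against 71 to 75. Of 8 microglia markers *C1qa* was higher in both fits and *Aif1* in the restricted fit, 4 were higher and 0 lower at an unadjusted p under 0.05, *P2ry12* and *Tmem119* were at 0, and the sums were 22 to 25 against 53 to 72. The sums of these 4 lists did not overlap between the groups.

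The 8 neuron markers were all detected and summed to between 6153 and 7080 against 7246 to 8630, a difference that rests on *Tubb3*, since the other 7 summed to 4291, 4449 and 4475 against 4302, 4025 and 4039. In the limma fit of all genes 0 of them passed (2 were lower and 2 higher at an unadjusted p under 0.05), and in the restricted fit *Tubb3* (1862, 1752 and 2605 against 3855, 3221 and 4591) and *Nefl* were higher and *Snap25* (94, 89 and 86 against 66, 59 and 56) was lower. The sums of 6 excitatory neuron markers (1215 to 1374 against 1159 to 1231), of 6 inhibitory neuron markers (255 to 286 against 241 to 288) and of 8 vascular or meningeal markers (11 to 20 against 8 to 12) overlapped between groups. In the fit of all genes 0 genes of these 3 lists passed, and at an unadjusted p under 0.05 the excitatory list had 1 lower and 2 higher genes, the inhibitory list 3 lower and the vascular list 0. In the restricted fit *Neurod6* was lower and *Slc17a7* and *Camk2a* higher among excitatory markers, *Gad1* and *Slc32a1* were lower among inhibitory markers, and no vascular marker reached a mean of 10. Without sgLacZ 3 the restricted fit gave the same counts for these lists and the 4 above, apart from neuron markers, with 2 lower and 3 higher. In that fit 26.5% of all genes were lower and 20.1% higher. The part of these cell types, of 3′ end composition and of sgLacZ 3 in the changes of the oxidative phosphorylation genes was not tested.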

How the data were processed

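RNA from 3 sgLacZ and 3 sgKcna1 samples was sequenced with a QuantSeq 3′ FWD kit. As deposited, each library is a list of gene symbols with a whole-number score, read here as per-million units rounded by the authors, because library totals lie between 999047 and 999717 and because, for gene means from 4 to 8, the variance was 0.705 (sgLacZ) and 0.504 (sgKcna1) times the mean. The submitters' processing notes name STAR 2.7, featureCounts, DESeq2 and mm10, while the study's methods name Bowtie2 and mm9. The study's methods name stranded reads. The annotation, the strand setting of the counting, handling of reads with several matches and scaling are not given in the sources used here. Genes with near-identical processed copies or an overlapping neighbour are therefore uncertain. Depth is unknown and no counting intervals are given.

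Groups and replicate numbers come from the labels. Values were tested as log2(value + 1) with limma 3.58.1 in R 4.3.3 (lmFit, eBayes with an intensity trend, two-sided), fitted to all 19504 genes above 0 in at least 1 library with no factor but the group and a Benjamini-Hochberg adjusted p under 0.05. The restricted fit used the 8050 genes with a mean of at least 10. On simulated data the script was tested in both fits; in the fit of all genes low genes with tied whole numbers can pass, which applied to 0 members (2 called genes had tied values in both groups). Sums, medians and motif shares are descriptions without a test. An exact permutation test of 3 against 3 samples cannot go below p = 0.1 and was not used. Members, lists and named genes were chosen with earlier results of these data known. The naming rule took members past the threshold or near it, the extremes and the 2 highest values of each complex, isoform families, called markers and Kcna1, and all other genes named were chosen after their values were seen. All 80 members matched a RefSeq symbol, Usmg5, Atp5f1, Atp5s and Atp5sl by older names. Motifs were searched in RefSeq promoter windows (GRCm38.p6) and transcript GC in GENCODE vM1 with Python 3.11.15. Alternatives were other pseudocounts (0.5, 5), filters, scalings, no trend, a replicate block and each library left out. The GC correction and the restricted fit without sgLacZ 3 were added after seeing the data.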

Additional observations from a re-analysis of the deposited data

How the results depend on the processing

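The count of members past the threshold, 8 (8 lower, 0 higher), depended on the processing, while the direction of the named genes did not turn past the threshold under any alternative. It was 2 (2 lower) with a pseudocount of 0.5 and 9 (8 lower, 1 higher) with 5. Of all genes 0.0513% and 2.44% were called there, against 1.16% in the main fit. Filters on a mean of at least 1 and 10 gave 25 (22 lower, 3 higher) and 31 (24 lower, 7 higher). Of all genes in these fits 11.3% and 28.4% were called. Median-of-ratios factors gave 22 (18 lower, 4 higher) and upper-quartile factors 23 (18 lower, 5 higher). Of all genes they called 8.81% (757 lower, 962 higher) and 10.6% (832 lower, 1226 higher). Rescaling without the gene Gm42418, which held from 15.3% to 20.2% of a library, gave 25 (22 lower, 3 higher). A fit without the intensity trend gave 3 (3 lower). Of all genes 9.08% and 1.03% were called in the last 2 settings. Leaving out 1 library gave from 1 to 28 members in all, from 1 to 22 lower and from 0 to 6 higher, with 1 to 3 in all except without sgLacZ 3 (28). Of all genes 11.9% were called without sgLacZ 3, and from 1.16% to 1.5% without another library. Of the alternatives added after seeing the data, the restricted fit without sgLacZ 3 gave 42 (31 lower, 11 higher), where 46.6% of all genes were called. The GC correction gave 29 (23 lower, 6 higher) against 31 (24 lower, 7 higher) in the same genes without it. Of all genes in these 2 fits 24.7% and 28.9% were called. In at least 1 of the alternative settings (those added later aside) 9 members, all outside the 8, changed sign (values within 1e-09 of 0 were counted as 0). The median log2 fold change of the members was -0.19, -0.068 with upper-quartile factors and -0.25 to -0.11 with a library left out. With median-of-ratios and upper-quartile factors the median of all genes moved from -0.02 to 0.02 and 0.03. The log2 fold change of Kcna1 was 1.83 and ranged from 1.73 to 1.99 with a library left out, with an adjusted p of 0.0607 without sgLacZ 1 and 0.059 without sgLacZ 2.

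With the replicate number as a block, 0 members and 0 genes passed, and Kcna1 kept its log2 fold change of 1.83 with an adjusted p of 0.111. Deviations of same-numbered samples correlated at 0.0143, 0.114 and 0.154, so the numbers were not taken to pair the cultures. The cause of these changes was not tested. Rounding to whole numbers limits genes such as Sdhd and Atp5g2, listed at a few units.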
